A study of Mus musculus with 4 samples.

Results

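The genes described here are 10 regulators of apoptosis, 3 of the death receptor pathway around caspase-8 (Cflar, Casp8 and Ripk1) and 7 of the Bcl-2 family (Bbc3, Bcl2l11, Bid, Bcl2, Bcl2l1, Mcl1 and Bax), out of 21900 protein-coding genes. They were given as a list of names, and each was examined from end to end as RefSeq places it on GRCm38, with 2 kb added on either side (the gene window). The study mapped H3K79me2, a dimethyl mark on a residue of the histone H3 core, by sequencing immunoprecipitated, formaldehyde-fixed chromatin (ChIP-seq) of BMDCs, dendritic cells that are grown in culture from the bone marrow of C57BL/6J mice and present antigen to T cells. The cells were given PBS, or lysine at 18 mM for 6 h, in serum-containing RPMI medium, and the labels give no time for PBS. Of the 4 samples, 1 H3K79me2 library per condition is described, and the 2 inputs were not analysed here. With a single library per condition, replicate error could not be estimated, and no test was made for any difference given. In such bulk chromatin, fewer cells with the mark and less mark per cell cannot be told apart.

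Apoptosis runs along a pair of connected routes. At death receptors, an adaptor recruits the initiator Casp8, which is held in check by its inactive relative Cflar (c-FLIP), while the kinase Ripk1 stands between survival and death signals downstream of the TNF receptor. At mitochondria, pro-survival proteins (Bcl2, Bcl2l1 or Bcl-xL, and Mcl1) restrain the pore-forming effector Bax, and BH3-only proteins (Bbc3 or PUMA, Bcl2l11 or Bim, and Bid) release it. Bid is cut by caspase-8 and joins the routes, and Bim is known to limit the life span of dendritic cells. H3K79me2 is made by Dot1l and is known as a mark of transcribed genes, strongest in the part of the gene body that follows the start.

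Both libraries had called H3K79me2 on all 10 genes, as 20 broad peaks in PBS and 20 in lysine, and Cflar and Bbc3 were the most extensively covered. A peak lay in the window of 10 of the 10 genes in PBS, beside 36.9% of all protein-coding genes, and of 10 of 10 in lysine, beside 34.0%. Both lists had a peak in 29.5% of all windows. Since the genes were proposed with earlier results of these data known, these counts describe the genes and do not test them. Together the 10 windows held 19455 bp under PBS peaks and 17124 bp under lysine peaks, a ratio of 0.880, compared with 0.829 for the summed windows of all protein-coding genes. At least 500 bp were covered in 10 genes in PBS (21.5% of all genes) and 7 in lysine (18.7%). Casp8, with 496 bp, Ripk1 and Bid were those below 500 bp in lysine. At a minimum of 250 bp both libraries had 10 genes, and at 1000 bp PBS had 6 and lysine 5. No share of all genes is given at those minima, so these counts only describe the 10 genes.

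**Figure D1:**
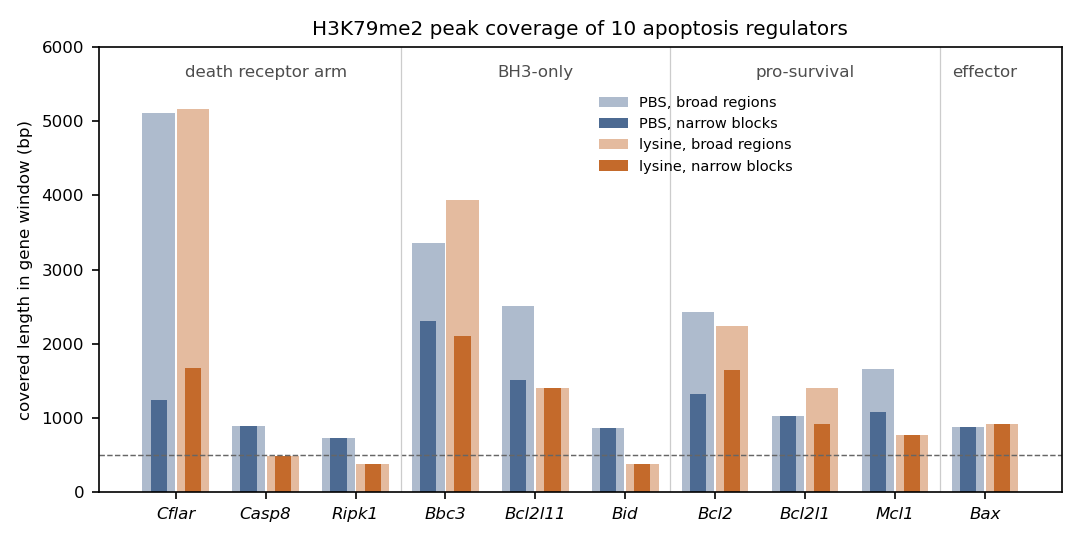
Covered length in the window of each gene (bp) in the PBS and the lysine library, with wide pale bars for broad regions, narrow dark bars for the narrow blocks inside them, and a dashed line at 500 bp. Each bar is 1 library. Cflar (5107 and 5159 bp) and Bbc3 (3356 and 3942 bp) are highest in both, and Bcl2l11, Mcl1, Bid, Ripk1 and Casp8 are lower in lysine.

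The lists differed on some of these genes and matched on others. A difference was called where covered lengths differed at least 1.5-fold and at least 500 bp were covered in either list. By that rule 5 of the 10 genes were shorter in lysine (Casp8, Ripk1, Bcl2l11, Bid and Mcl1), beside 8.46% of all genes, or 32.5% of the 5704 genes with 500 bp in either list. None of the 10 was longer by that rule, beside 4.37% of all genes and 16.8% of those 5704. The median difference of the 10 genes, lysine minus PBS, was -268.5 bp, and that of the 5704 genes -84.0 bp. The call of Casp8 held under 2 of 7 other treatments of the peaks, while Ripk1, Bcl2l11 and Bid kept theirs under 6 and Mcl1 under 5.

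Of the PBS peaks at the 10 genes, 17 of 20 (85.0%, 95% Clopper-Pearson interval 62.1 to 96.8) had a partner in the lysine list, that is, 1 bp or more in common, and 18 of 20 lysine peaks (90.0%, 68.3 to 98.8) had one in the PBS list. Where at least 50% of each peak had to overlap, 12 of 20 were shared in each library. Over the whole lists the shares by the 1 bp rule were 61.9% (PBS) and 75.3% (lysine). No share of the whole lists is given for the 50% rule. The intervals cover counting error only, and neighbouring peaks of a gene are not independent. The genes were also chosen with earlier results of these data known. The intervals are therefore no test of these shares against those of the whole lists. The 5 peaks without a partner were all under 500 bp wide, from 279 to 442 bp. They lay at the outer end of Casp8, inside Bcl2 and inside Bcl2l1 in PBS, and inside Bcl2l1 and at the start of Bcl2 in lysine. In 18 overlapping pairs the lysine peak was narrower in 11 and wider in 7, and both edges lay within 100 bp of each other in 3.

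Sequences around 3 gene starts show where the called regions end on the DNA. They were taken from the RefSeq promoter table (GRCm38.p6), which gives 16 starts for the 10 genes, and run from 250 bases before the listed start to 30 bases after it, read 5′ to 3′ on the strand of the gene. Capitals mark bases under a lysine peak for Bcl2, whose start no PBS peak reached, and bases under peaks of both lists for Mcl1 and Bax. Bcl2 is shown because its single listed start lay under a lysine peak alone, and Mcl1 and Bax as examples of single listed starts under peaks of both libraries. The single listed starts of Casp8 and Bid also lay under peaks of both and are not shown.
Bcl2 (chr1:106714261-106714540, minus strand, 202 of 280 bases in capitals): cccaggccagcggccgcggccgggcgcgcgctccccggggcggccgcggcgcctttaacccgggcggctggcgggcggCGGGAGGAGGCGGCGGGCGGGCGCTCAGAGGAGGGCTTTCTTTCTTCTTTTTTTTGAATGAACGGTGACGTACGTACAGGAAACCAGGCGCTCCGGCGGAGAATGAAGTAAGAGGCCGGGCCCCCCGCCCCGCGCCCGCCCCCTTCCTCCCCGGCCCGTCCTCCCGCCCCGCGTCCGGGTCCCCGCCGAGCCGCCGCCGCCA
Mcl1 (chr3:95658471-95658750, plus strand, 249 of 280 bases in capitals): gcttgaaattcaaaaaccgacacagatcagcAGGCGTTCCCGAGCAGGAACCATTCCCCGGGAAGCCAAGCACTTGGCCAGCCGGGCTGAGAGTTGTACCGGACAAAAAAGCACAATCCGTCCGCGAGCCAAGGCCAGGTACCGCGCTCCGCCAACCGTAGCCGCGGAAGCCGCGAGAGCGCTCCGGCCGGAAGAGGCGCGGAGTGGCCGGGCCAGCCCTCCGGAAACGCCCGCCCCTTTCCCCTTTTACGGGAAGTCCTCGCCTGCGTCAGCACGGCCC
Bax (chr7:45466869-45467148, minus strand, 154 of 280 bases in capitals): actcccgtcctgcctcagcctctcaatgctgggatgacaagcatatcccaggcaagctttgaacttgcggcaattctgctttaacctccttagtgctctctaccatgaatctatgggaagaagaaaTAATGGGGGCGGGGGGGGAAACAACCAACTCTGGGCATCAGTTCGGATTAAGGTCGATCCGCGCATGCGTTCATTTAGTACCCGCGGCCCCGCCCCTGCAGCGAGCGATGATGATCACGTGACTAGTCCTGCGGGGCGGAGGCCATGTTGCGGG
The Bcl2 and Mcl1 sequences come from promoters rich in CpG (observed over expected 1.02 in each) and hold the called bases without a break up to the end of the stretch, and in Bax the called region begins 124 bases before the start.

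Among the death receptor genes, Cflar stood apart by its extent, with 3 long regions at nearly the same places in both libraries. Cflar (chromosome 1, 58711311 to 58758884, plus strand) was covered over 5107 bp in PBS and 5159 bp in lysine. Of 21900 genes, 10 had that much or more in PBS and 2 in lysine, Cflar included. The PBS regions lay at 58712063 to 58713407 (1345 bp), 58720127 to 58722699 (2573 bp) and 58726064 to 58727252 (1189 bp). The lysine regions lay at 58711995 to 58713075 (1081 bp), 58720157 to 58722763 (2607 bp) and 58726086 to 58727556 (1471 bp). The middle regions thus began 30 bp and ended 64 bp apart, and 92.5% of the PBS length was shared. None of them reached the listed start, since the nearest began 572 bp after it in PBS and 504 bp after it in lysine, and the others lay about 10 and 15 kb into the gene.

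Most of the extent of Cflar was broad signal outside narrow blocks. Narrow blocks, the better enriched stretches inside a broad region, held 1241 bp in PBS and 1671 bp in lysine, so 3866 and 3488 bp of its broad length lay outside any block. In PBS the blocks lay at 58713127 to 58713407, 58720127 to 58720427, 58722357 to 58722699 and 58726937 to 58727252. In lysine they lay at 58712599 to 58713075, 58721147 to 58721444, 58722225 to 58722763 and 58727200 to 58727556. Only 396 bp of block were common to both, so the broad regions coincided and the blocks inside them largely did not. The −log10 q, a measure of confidence that the authors' peak caller gives each peak, placed the 3 regions at percentiles 17.4, 23.2 and 67.5 of the PBS list and 6.7, 38.6 and 8.0 of the lysine list. Cflar kept 5107 bp (PBS) and 2607 bp (lysine) at a minimum −log10 q of 2, and 1189 and 0 bp at a minimum of 5.

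Casp8, the initiator caspase, lies 36.3 kb beyond Cflar (chromosome 1, 58795233 to 58847503, plus strand), and neither list had a peak within the space between them other than at the outer end of Casp8. In PBS it had peaks at 58794958 to 58795399 (442 bp), over that outer end, and at 58802130 to 58802584 (455 bp), over its listed start. In lysine it had a single peak at 58802190 to 58802685 (496 bp), over the listed start. Covered length was 897 bp (PBS) and 496 bp (lysine). The difference came from the PBS peak at the outer end, which was weak, at percentile 7.7 of its list. That peak dropped out at a minimum −log10 q of 2, at a minimum fold of 4 or with equal numbers of peaks, and Casp8 was longer in lysine by 41 bp.

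Ripk1 (chromosome 13, 34002225 to 34035170, plus strand) had its mark at the very start of the gene, in a single peak per library. It measured 737 bp in PBS (34002150 to 34002886) and 389 bp in lysine (34002222 to 34002610), and all of the lysine peak lay inside the PBS peak. Both peaks were a single narrow block. The PBS peak covered both listed starts of Ripk1 and also the start of Serpinb6a, a serpin gene read in the opposite direction that overlaps it, and the lysine peak covered the first start of Ripk1 alone. The covered length of Ripk1 and that of Serpinb6a here are the same bases and cannot be told apart. Ripk1 kept 737 bp (PBS) and 0 bp (lysine) at a minimum fold of 4, and lost both peaks at a minimum −log10 q of 5.

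**Figure D2:**
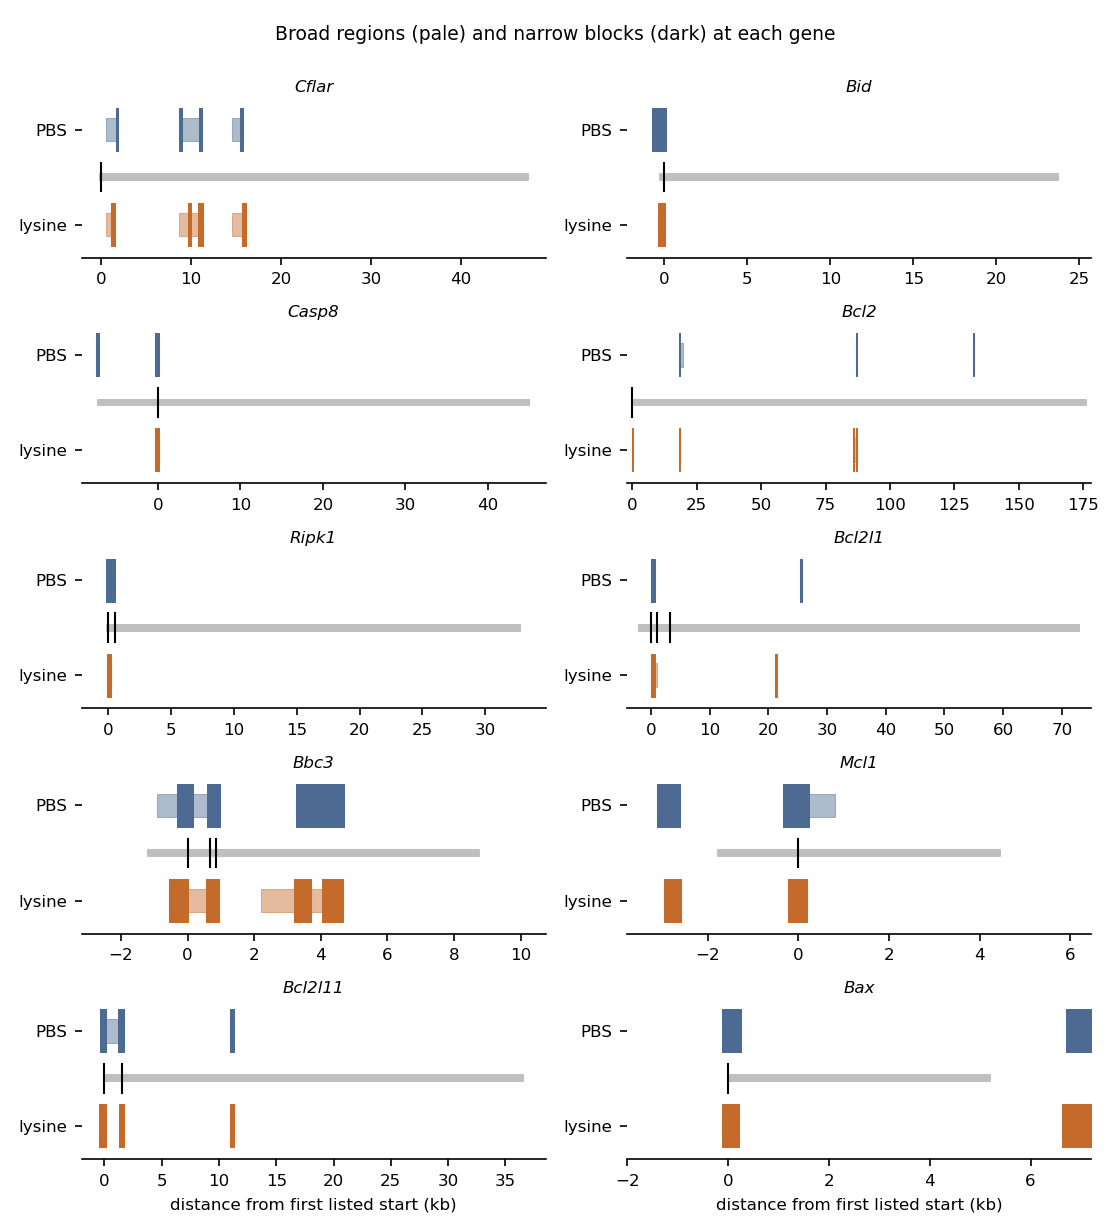
Peaks along each gene, with distance from the first listed start in kb and transcription running to the right, PBS above and lysine below. Grey lines are gene bodies, black ticks listed starts, pale boxes broad regions and dark boxes narrow blocks. The 3 Cflar regions begin after the start, Bbc3, Bcl2l11 and Bid have peaks over their starts, and the Bcl2 start has a peak in lysine alone.

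Of the BH3-only genes, Bbc3 was covered along its first part in both libraries, Bcl2l11 and Bid less far in lysine. Bbc3 (chromosome 7, 16308398 to 16318334, plus strand), a gene known to be induced by p53, was covered over 3356 bp in PBS and 3942 bp in lysine. That is 24.1% and 28.3% of its window, the highest share of the 10 genes in both libraries. PBS peaks lay at 16308664 to 16310567 (1904 bp) and 16312835 to 16314286 (1452 bp), and lysine peaks at 16309028 to 16310518 (1491 bp) and 16311788 to 16314238 (2451 bp). In both libraries the first peak covered the 3 listed starts of Bbc3. The second lay inside the gene and was wider in lysine, where it began 1047 bp earlier.

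By narrow blocks the order of Bbc3 turned, to 2314 bp in PBS and 2102 bp in lysine. The PBS blocks spanned 16309269 to 16309736, 16310174 to 16310567 and 16312835 to 16314286, the last filling its whole region. The lysine blocks spanned 16309028 to 16309599, 16310124 to 16310518, 16312764 to 16313279 and 16313620 to 16314238. They shared 1740 bp, so the blocks of both libraries lay at the same 3 places, and 1042 bp of broad length lay outside blocks in PBS and 1840 bp in lysine. Only 11 genes had as much covered length as Bbc3 or more in lysine, itself included, and 60 in PBS. Neither library kept a peak there at a minimum −log10 q of 5.

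Bcl2l11 (chromosome 2, 128126038 to 128162547, plus strand) was covered over 1412 bp in lysine against 2512 bp in PBS, a ratio of 0.562, beside 0.448 at Bid and 0.469 at Mcl1. In PBS 1 region at 128125621 to 128127709 (2089 bp) spanned both of its listed starts. In lysine separate peaks stood at the same starts, at 128125572 to 128126180 (609 bp) and 128127284 to 128127738 (455 bp). The PBS region was itself composed of blocks at 128125621 to 128126195 and 128127194 to 128127709, and the stretch between them, outside any block, was 998 bp. By blocks the gene had 1514 bp in PBS and 1412 bp in lysine, a difference of -102 bp, and 1334 bp of block were shared. A further peak inside the gene, near 9.6 kb after a start, was found in both, with 423 bp in PBS (128136962 to 128137384) and 348 bp in lysine (128137030 to 128137377). The first peak also lies over the end of Acoxl, an acyl-CoA oxidase-like gene on the same strand.

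Bid (chromosome 6, 120893119 to 120917062, minus strand) had a single peak at its start in each library, of 862 bp in PBS (120916702 to 120917563) and 386 bp in lysine (120916793 to 120917178). The lysine peak lay wholly inside the PBS peak, and each was 1 block. Their strength within their lists was alike, at percentiles 66.4 and 66.9 by −log10 q. Most of the shortfall lay upstream of the start, where the PBS peak reached 739 bp before it and the lysine peak 354 bp. Within the gene body alone the lengths were 361 and 270 bp, which is less than a 1.5-fold difference.

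Among the pro-survival genes, Bcl2 and Bcl2l1 carried peaks deep inside the gene as well as near the start. Of the covered length of the 3 pro-survival genes 45.3% of PBS and 52.4% of lysine was shared, against 81.7% and 91.1% for the 3 death receptor genes and 68.6% and 80.4% for the 3 BH3-only genes. By narrow blocks the order of the first 2 of these sets turned, with 63.0% and 64.9% shared for the pro-survival genes and 41.0% and 46.2% for the death receptor genes, beside 73.8% and 88.7% for the BH3-only genes. The pro-survival genes together had 5107 bp in PBS and 4420 bp in lysine. Each set holds few genes, and its total rests mainly on 1 or 2 of them.

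Bcl2 (chromosome 1, 106538176 to 106714290, minus strand) is the longest of the genes and had 2424 bp in PBS, 1.35% of its window, and 2235 bp in lysine, 1.24% of it. PBS peaks lay at 106581789 to 106582219 (431 bp), 106627157 to 106627621 (465 bp) and 106694661 to 106696188 (1528 bp). Lysine peaks lay at 106627113 to 106628539 (1427 bp), 106695698 to 106696102 (405 bp) and 106714060 to 106714462 (403 bp). These totals were thus alike and their places were not, with 870 bp in common. The sites near 87 and 19 kb after the start were found in both libraries, the one 132 kb after the start in PBS alone, and the one over the start in lysine alone.

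At the shared Bcl2 sites the wide peak of one library stood opposite a narrow one of the other. Near 87 kb, lysine blocks at 106627113 to 106627580 and 106628167 to 106628539 faced the PBS peak of 1 block, and near 19 kb the PBS block at 106695754 to 106696188 faced the lysine block at 106695698 to 106696102. By blocks Bcl2 had 1331 bp in PBS and 1649 bp in lysine, a turn of the order. At a minimum −log10 q of 5 it had 896 and 1832 bp, so it was longer in lysine more than 1.5-fold. The lysine peak at the start had a −log10 q of 3.18, at percentile 38.6 of its list, and the absence of a called PBS peak at that start does not show that the mark was absent.

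Bcl2l1 (chromosome 2, 152758732 to 152833803, minus strand) had 1026 bp in PBS and 1408 bp in lysine. At its starts the PBS peak lay at 152831074 to 152831785 (712 bp), and the lysine peak at 152830633 to 152831761 (1129 bp), the strongest lysine peak of the 10 genes outside Bax, at percentile 88.2. The lysine peak covered 2 of the 3 listed starts, and the PBS peak 1. A peak inside the gene was found in each library at a different place, of 314 bp in PBS (152806060 to 152806373) and 279 bp in lysine (152810251 to 152810529). By blocks the difference turned to -109 bp (1026 and 917 bp). At a minimum −log10 q of 5, or a minimum fold of 4, Bcl2l1 had 712 and 1129 bp and was longer in lysine by the 1.5-fold rule.

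Mcl1 (chromosome 3, 95656944 to 95663179, plus strand), which encodes a short-lived protein, had 1657 bp in PBS and 777 bp in lysine. Its listed start, 1777 bp inside the annotated gene, lay under a peak of 1141 bp in PBS (95658388 to 95659528) and 412 bp in lysine (95658502 to 95658913). The block in the PBS peak ended at 95658956, so the blocks measured 569 and 412 bp and the PBS region went on 572 bp without one. Another peak lay about 2.8 kb before the start, outside the gene body, of 516 bp in PBS (95655593 to 95656108) and 365 bp in lysine (95655763 to 95656127). By fold the lysine peak at the start ranked higher within its list, at percentile 81.1, than the PBS peak in its own, at 57.0. At a minimum −log10 q of 5 the lysine peak at the start alone was left, 412 bp against 0 bp in PBS, so the order of Mcl1 turned. The PBS peaks, with a −log10 q of 4.78 at the start and 4.72 before it, fell just short of that minimum.

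Bax (chromosome 7, 45461695 to 45466903, minus strand), the effector, had a narrow peak over its start at nearly the same place in both libraries. The peak over its start measured 375 bp in PBS (45466648 to 45467022) and 338 bp in lysine (45466689 to 45467026), with 334 bp in common. It was the strongest peak of the 10 genes in both libraries, with a fold over background of 7.12 and 6.61 and at percentiles 90.9 and 89.5 by −log10 q. A further peak lay after the end of Bax and reached into its window, of 502 bp in PBS (45459701 to 45460202) and 962 bp in lysine (45459315 to 45460276). That peak lies over the start of Ftl1, the ferritin light chain gene, and the edge of the Bax window leaves out the end of the lysine peak, of which 582 bp are counted. With it Bax had 877 bp (PBS) and 920 bp (lysine), and without it 37 bp less in lysine than in PBS. With flanks of 5 kb the whole lysine peak is counted, and the lengths were 877 and 1300 bp.

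At these genes the wider peaks had the lower median fold, with exceptions. Of the PBS peaks 8 of 20 (40.0%) and of the lysine peaks 7 of 20 (35.0%) were 1 kb or wider, beside 9.89% and 8.52% of all peaks in the lists. The members' wide peaks had a median fold of 4.51 in PBS and 4.14 in lysine, and the narrower ones 5.04 and 4.74. The Bcl2l11 PBS peak of 2089 bp had a fold of 5.88, and the Bcl2l1 lysine peak of 1129 bp one of 6.56, each second to the Bax peak in its library. In the whole lists the medians were 4.46 and 4.39 for wide peaks and 4.53 and 4.49 for narrower ones. The fold is the authors' value, averaged over the region, and is used here to rank peaks within a list.

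**Figure D3:**
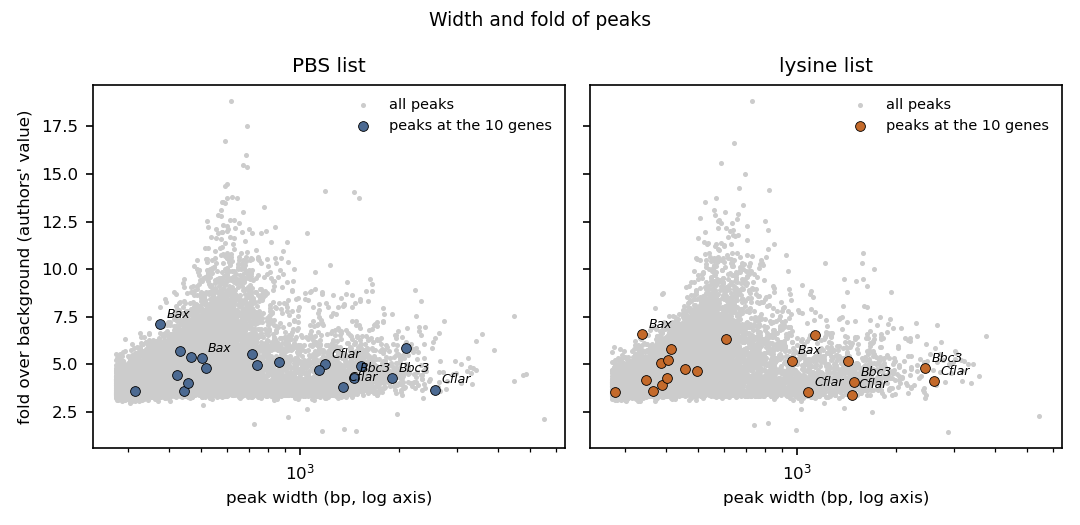
Peak width (bp, log axis) against fold over background (the authors' value) in the PBS and the lysine list, with all peaks in grey and the 20 peaks at the 10 genes in colour. Labels name the peaks of Cflar, Bbc3 and Bax. The Bax peak at the gene start is narrow and has the highest fold of the coloured points (7.12 and 6.61), while the wide Cflar peaks lie lower, down to 3.42.

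Most of these genes had a peak over a start. A peak covered at least 1 listed start in 8 of the 10 genes in PBS (26.1% of 17492 genes with a listed start) and in 9 in lysine (24.5%). Cflar had none in either list and Bcl2 none in PBS. Of the 16 listed starts, 12 lay under a PBS peak and 13 under a lysine peak, compared with 23.8% and 22.3% of all 21263 listed starts. Starts of the same gene can share a peak. Over all genes the share was highest 125 bp before the start, the place sampled just upstream of it, at 23.6% in PBS and 22.1% in lysine. At 125 bp after the start it was 18.3% and 16.8%. It was 0.710% and 0.564% at 2125 bp before the start, and 0.503% and 0.376% at 2125 bp after it. Called peaks were thus concentrated close to the start on both sides, and were rare 2 kb before or after it. They did not follow the profile given above, of a mark strongest in the part of the gene body after the start. The reason was not tested. Cflar, Bbc3, Bcl2l11, Bcl2 and Bcl2l1 also had peaks further inside the gene.

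**Figure D4:**
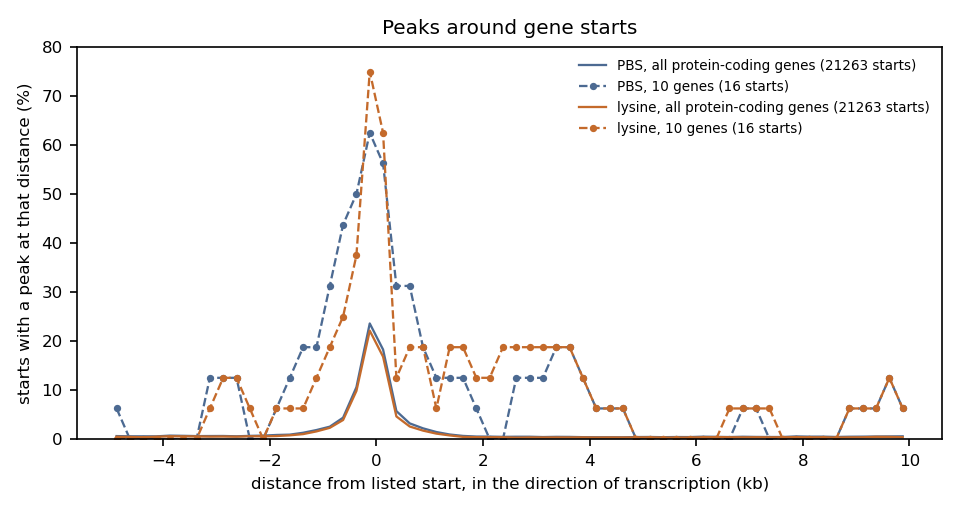
Share of listed gene starts (%) with a peak at a given distance (kb, positive in the direction of transcription, sampled every 250 bp), for all protein-coding genes (solid, 21263 starts) and the 10 genes (dashed, 16 starts, several of them close together in 1 gene). Both groups are highest just before the start. The lines of the 10 genes reach 18.75% (3 of 16 starts) again between 3 and 4 kb after it, in lysine already from 2375 bp. These 3 are the listed starts of Bbc3, which all meet the same second peak of that gene.

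Base composition of the 16 promoters, from 250 bases before to 50 after each listed start, varied widely. Their G+C share had a median of 64.5% against 56.3% over 21255 promoters, and CpG observed over expected a median of 0.780 against 0.567. The lowest CpG value was 0.056, at the Bcl2l1 start that neither library covered, and the Cflar promoter, also without a peak, had 0.791. The GC box GGGCGG, searched on both strands, was found in 11 of the 16 promoters, those of Bax, Bbc3, Bcl2, Bcl2l11, Bid, Mcl1 and Ripk1, and in 46.2% of all promoters. CCAAT was found in 4 of 16 (38.2% of all), TATAAA in 1, that of Cflar (12.6%), and CACGTG in 2, of Bax and Bbc3 (7.84%). The p53 half-site was matched in 1 of the 16, that of Bax (7.38% of all), and the NF-kB consensus in 2, of Bbc3 and Bcl2l1 (9.25%). A match is a run of letters, not a bound site.

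Peaks were more frequent on a wider apoptosis list than over all genes, and less frequent than on the 10 genes. The 10 genes and the list were chosen with earlier results of these data known. The contrast between them therefore describes the genes and does not test them. Of 62 further genes of the Bcl-2 family, the caspases, the apoptosome, the inhibitors of apoptosis, the death receptors and their ubiquitin-editing regulators, a peak was found on 39 in PBS and on 36 in lysine (beside 36.9% and 34.0% of all genes), and at least 500 bp on 24 and 22 (beside 21.5% and 18.7%). Their windows held 31583 bp under PBS peaks and 24595 bp under lysine peaks, a ratio of 0.779 beside 0.829 for all genes. By the 1.5-fold rule 11 were shorter in lysine (8.46% of all genes) and 6 longer (4.37%). That rule can call only genes with 500 bp in either list, and among the 5704 such genes the shares were 32.5% and 16.8%. How many of the 62 could be called is not given, so these counts only describe the list. The median difference was 0 bp, as over all protein-coding genes, and in both it rests on genes without a difference. These were 20 of the 62 and 12844 of the 21900, nearly all without a peak. Of the wider list 25 genes were lower in lysine and 17 higher. Over protein-coding genes with a peak in either list the median was -64.0 bp. No gene of this list reached the length of Cflar or Bbc3.

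Of the death receptor side of the wider list, Fadd, the adaptor that recruits Casp8, had the most, 2713 bp in PBS and 1400 bp in lysine. Its order turned at a minimum −log10 q of 5 (492 bp more in lysine), at a minimum fold of 4 and with equal numbers of peaks (1076 bp more in each), by blocks (700 bp more) and without flanks (33 bp more). Of the deubiquitinases that restrain TNF receptor signalling, Tnfaip3 (A20) had 1643 and 1394 bp and Cyld 1517 and 1379 bp, while Otulin was shorter in lysine by the 1.5-fold rule, with 1232 and 770 bp. Rnf31, the catalytic subunit of the linear ubiquitin ligase, whose peaks also lie over Irf9 and Psme2, had 1361 and 754 bp. The adaptor Traf2 had 565 and 1134 bp, and Tradd, whose peak also lies over Fbxl8, was without a PBS peak and had 676 bp in lysine. Without flanks Tradd had no covered length in either library, Otulin had 947 and 764 bp, less than a 1.5-fold difference, and Rnf31 had 143 and 15 bp, below the 500 bp that the rule asks for.

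Of its mitochondrial side, Foxo3, a transcription factor known to induce Bim and PUMA, had 2094 and 1668 bp, and Bnip3l, a mitophagy receptor, 1189 and 1213 bp. Bad, a BH3-only gene whose peaks also lie over Gpr137, had 1734 bp (PBS) and 593 bp (lysine), and the BH3-only gene Pmaip1 (Noxa) 1152 and 391 bp. Without flanks the difference at Pmaip1 was -4 bp, so it lay almost wholly outside the gene. Mdm2, the ubiquitin ligase of p53, had 1501 and 348 bp, and Casp2 had 1064 and 393 bp, which by blocks came to a difference of -11 bp. The effector Bak1, which shares its peak with Ggnbp1, had 555 and 1125 bp, and by blocks the difference, lysine minus PBS, turned to -555 bp. Birc6, a large inhibitor of apoptosis, had 1063 and 913 bp. Casp4, the receptor caspase for lipopolysaccharide, had a lysine peak of 580 bp, which also falls in the window of Casp1, and no PBS peak. Dot1l had 746 and 803 bp in its window.

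**Figure D5:**
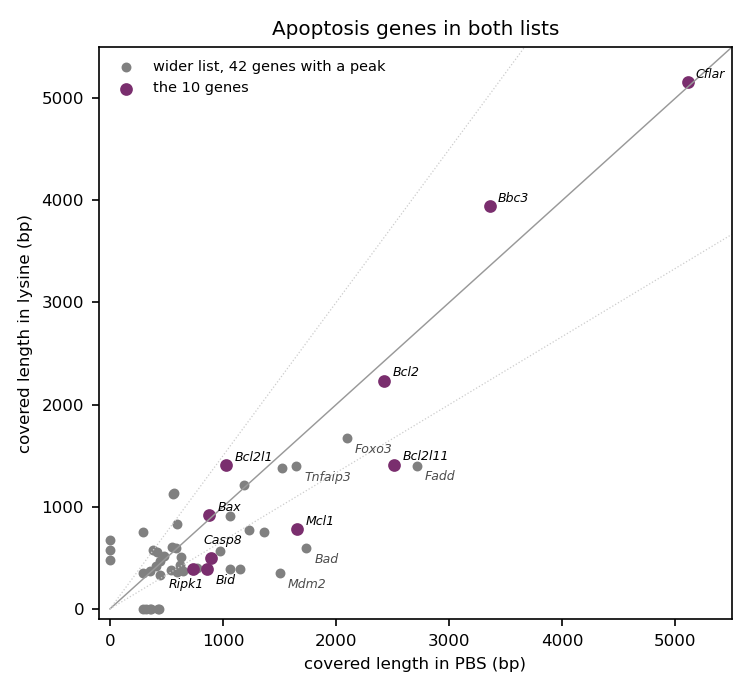
Covered length in PBS against that in lysine (bp) for the 10 genes (purple) and the 42 genes of the wider list with a peak (grey), 1 point a gene. The solid line marks equal lengths and the dotted lines a 1.5-fold difference. Cflar and Bbc3 lie far out near the solid line, and Bcl2l11, Mcl1, Fadd, Bad and Mdm2 lie below the lower dotted line.

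The labelled cell type was only partly reflected in the called peaks. Peaks lay on 8 of 12 dendritic cell markers in PBS and on 5 in lysine, with 8802 and 4823 bp, and H2-Aa, Irf4, Batf3 and Ccr7 had none in either. All protein-coding genes had a peak in 36.9% and 34.0% of cases. The largest drop was at H2-Ab1 (2602 to 0 bp), while Cd74 had more in lysine (900 and 2441 bp). Of 8 macrophage and monocyte markers 5 and 1 had a peak (2918 and 1160 bp), of 6 neutrophil markers 1 and 0 (439 and 0 bp), and of 6 T and NK cell markers 1 and 1 (519 and 555 bp). No peak lay on 5 B cell markers or on 6 genes of liver, brain, heart and pancreas. The summed marker lengths were lower in lysine for the first 3 of these lists, and their part in the lengths of the apoptosis genes was not tested. The lists hold 11926 peaks in PBS and 9805 in lysine and give no read totals, so the depth of the libraries is unknown.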

How the data were processed

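H3K79me2 ChIP-seq libraries of BMDCs, made with paired ends per the labels' protocols, were analysed as 1 broad and 1 gapped peak list per condition, called per sample. Per the submitters' processing notes the tools included MACS2 2.1.2 (a peak caller), Bowtie2 2.3.4.1 (an aligner), cutadapt 1.18 and Trimmomatic 0.38 (trimmers), FastQC, Picard and ChIPseeker, and the build was GRCm38. Not given in the sources used here were settings, the calling threshold and any use of the inputs. The lowest deposited −log10 q was 1.37 in PBS and 1.32 in lysine. The deposited fold is a linear ratio of signal to local background, and the authors' score is the −log10 q times 10, truncated, in all peaks but 1 lysine peak. These values of the authors depend on depth, which is unknown, and rank or filter peaks within a list only.

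Covered length is the number of bp of a gene window under broad peaks. Gene ends were those of RefSeq on GRCm38.p6, and starts and strand from its promoter table, which does not list every start. Narrow blocks came from the gapped lists, less those of 1 bp. Any overlap of 1 bp or more made a peak shared. The genes named are the 10 members, genes under their peaks, Dot1l, and of the wider list the 10 with the most covered length over both libraries and the 10 with the largest difference. The members and lists were chosen with earlier results of these data known. Alternatives were no flank or 5 kb, minima of −log10 q (2 and 5) and fold (4), equal numbers of peaks (9805), narrow blocks, minima of 250 and 1000 bp, and stricter overlaps. Python 3.11.15, numpy 2.4.6, pandas 2.3.3 and matplotlib 3.10.9 were used. Covered lengths were tested on simulated data and checked against bedtools 2.31.1, with 0 differences over 21900 windows.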

Additional observations from a re-analysis of the deposited data

How the results depend on the processing

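With 1 library per condition, counting error aside, no error could be given, and the lists' unknown depths limit every difference. No paired analysis was possible because each condition has 1 library and no test was made. The summed covered length of the 10 genes stayed shorter in lysine under all 7 alternatives, at 17050 and 15297 bp without flanks (PBS and lysine, difference -1753), 19745 and 17504 bp with 5 kb (-2241), 19013 and 14572 bp at a minimum −log10 q of 2 (-4441), 6625 and 5288 bp at 5 (-1337), 14781 and 13539 bp at a minimum fold of 4 (-1242), 17668 and 17124 bp with equal numbers of peaks (-544), and 11884 and 10719 bp by blocks (-1165). Without the peaks over Ftl1, an alternative chosen after seeing the data, it was 18953 and 16542 bp (-2411), and Bax had -37 bp. In the same order as the 7, the wider list differed by -3059, -7910, -6859, -4335, -4733, -1728 and -4538 bp. At a minimum −log10 q of 5 the 10 genes kept 8 peaks in each library, 6 genes with a peak in each, and 6 (PBS) and 4 (lysine) with 500 bp, and the wider list 20 and 14 genes with a peak. At least 1000 bp were covered in 6 genes in PBS and 5 in lysine. No lengths or shares over all genes are given for these alternatives. With flanks of 2 kb and all broad peaks the 10 genes differed by -2331 bp, a ratio of 0.880. The ratio of all protein-coding genes was lower, at 0.829, so the sign alone does not set the 10 genes apart. With equal numbers of peaks their difference was smaller, at -544 bp.

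The number of genes called shorter was 3 without flanks, by blocks and at a minimum −log10 q of 5. At that minimum 2 were called longer (Bcl2 and Bcl2l1), as were 2 at a minimum fold of 4 (Cflar and Bcl2l1). The share of all genes called is given for flanks of 2 kb and all broad peaks only. It can differ under the alternatives, so these counts only describe the 10 genes. Bcl2l11, Bid and Ripk1 did not turn under any of the 7, and the other 7 genes turned under at least 1. Without flanks Bax turned to -41 bp, Fadd to 33 bp and Cyld to 33 bp. At a minimum −log10 q of 2 Cflar turned to -2500 bp and Casp8 to 41 bp. At 5 Cflar turned to -1189 bp, Bcl2 to 936 bp, Mcl1 to 412 bp, Bnip3l to -309 bp, Fadd to 492 bp and Tnfaip3 to 363 bp. At a minimum fold of 4, and with equal numbers of peaks, Casp8 turned to 41 bp and Fadd to 1076 bp. By blocks Bbc3 turned to -212 bp, Bcl2 to 318 bp, Bcl2l1 to -109 bp, Bak1 to -555 bp, Fadd to 700 bp and Tnfaip3 to 192 bp. Of the named genes of the wider list, Casp2 and Mdm2 lost their call under 1 of the 7. Bad, Pmaip1, Otulin and Rnf31 lost theirs under 2, Casp4 and Traf2 under 3, Bak1 and Tradd under 4, and Fadd under 5. The other calls of the wider list were not followed under the 7 alternatives. These filters remove peaks, or parts of them, by construction, and no other cause was tested.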
